A study of Mus musculus with 6 samples.

Results

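Complement is a set of blood and tissue proteins that mark microbes and dying cells for uptake and release small fragments that call in inflammatory cells. The genes described here are 8 members of that system that macrophages express, chosen by gene symbol among the 35378 genes whose values could be read: C1qa, C1qb and C1qc, C3, Cfb and Cfp, and the receptors C3ar1 and C5ar1. All 8 were found, and all 8 were among the 9800 genes tested. RNA was sequenced from mouse bone marrow-derived macrophages (BMDMs), grown from C57BL/6 femur marrow for 7 days with 10 ng/ml M-CSF, the growth factor that turns marrow cells into macrophages. The 3 libraries labelled Ctrl carry no treatment in the labels, and the 3 ZA libraries were taken 12 h after ZA stimulation. ZA is zoledronic acid, a bisphosphonate that inhibits farnesyl diphosphate synthase of the mevalonate pathway. The ZA concentration for these libraries and the number of mice behind each culture are not given in the sources used here, so p-values measure only the spread between these libraries, which may be technical.

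C1q is the recognition molecule of the classical pathway and is built from A, B and C chains, each with its own gene. C3 is the protein on which all complement pathways meet, factor B (Cfb) forms the C3-cleaving enzyme of the alternative pathway, and properdin (Cfp) stabilises that enzyme. Most circulating complement is made in the liver, but macrophages are a known source of C1q and properdin. C3aR (C3ar1) and C5aR1 (C5ar1) are the G protein-coupled receptors for the small fragments C3a and C5a.

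In the RefSeq annotation, C1qb, C1qc and C1qa lie next to each other in that order, so the C1q genes form a cluster. Cfb is next to C2, the corresponding protease gene of the classical pathway, and C5ar1 is next to C5ar2. The 250 bases before the start site were at hand for 6 of the 8 genes, all but C1qa and Cfb. They come from the RefSeq build GRCm38.p6, which is not the mm9 build that the submitters' processing notes name for the expression values. They are shown for the genes with a match to a searched motif, because C3 is the gene whose level differed most clearly and C1qc and C3ar1 allow a comparison. Capitals mark the match, and each runs 5′ to 3′ on the minus strand, at chr17:57228137-57228386 for C3, chr4:136892915-136893164 for C1qc and chr6:122856158-122856407 for C3ar1.
C3: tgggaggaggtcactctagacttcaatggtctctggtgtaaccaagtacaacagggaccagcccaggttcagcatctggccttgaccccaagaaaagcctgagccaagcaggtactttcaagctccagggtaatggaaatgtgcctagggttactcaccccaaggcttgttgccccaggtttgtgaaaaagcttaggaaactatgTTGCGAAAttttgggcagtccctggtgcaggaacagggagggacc
C1qc: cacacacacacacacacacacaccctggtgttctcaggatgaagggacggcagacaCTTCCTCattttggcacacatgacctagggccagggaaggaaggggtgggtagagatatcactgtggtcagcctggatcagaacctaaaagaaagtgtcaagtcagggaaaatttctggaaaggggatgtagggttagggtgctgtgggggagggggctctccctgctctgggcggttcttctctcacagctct
C3ar1: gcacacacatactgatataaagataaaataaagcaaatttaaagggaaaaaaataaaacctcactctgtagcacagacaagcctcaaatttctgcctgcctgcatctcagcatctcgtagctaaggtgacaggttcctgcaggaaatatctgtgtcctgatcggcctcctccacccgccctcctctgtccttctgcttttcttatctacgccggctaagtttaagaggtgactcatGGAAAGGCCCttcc

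Both strands of 300 bases, 250 before and 50 after the start site, were searched for the C/EBP (TTGCNNAA) and PU.1 (GAGGAAG) motifs and for the NF-kB and interferon response motifs. C3 held a C/EBP match that begins 45 bases before the start site, and 10.8% of the 32851 promoters of that table hold such a match. C1qc held a PU.1 match 194 bases before the start, a motif present in 13.6% of promoters. C3ar1 held an NF-kB match 14 bases before the start, a motif present in 1.63% of promoters. The interferon response motif, found in 3.44% of all promoters, had no match in the 6 promoters, which do not include those of C1qa and Cfb. No matches overlapped, and a match describes letters and not a bound site.

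The 3 C1q chains were among the most abundant transcripts of the cells. Levels are in FPKM, a unit that divides a gene's fragments by its length and by the depth of the library, so levels of different genes can be compared. By mean FPKM, C1qb ranked 17, C1qc 23 and C1qa 59 of the 35378 genes. C1qb stood at 2305, 2399 and 2409 FPKM in Ctrl 1, 2 and 3 and at 2388, 2413 and 2475 in ZA 1, 2 and 3. C1qc stood at 1675, 1690 and 1677 FPKM in Ctrl and at 1681, 1795 and 1729 in ZA. For both chains the groups overlapped.

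C1qa, the A chain, was the C1q gene whose groups did not overlap. It stood at 738, 728 and 736 FPKM in Ctrl and at 752, 782 and 821 in ZA, so that every ZA library lay above every Ctrl library. In all genes tested, 11.4% had ZA libraries wholly above Ctrl, and 6.76% had them wholly below. The C1qa means were 734 ± 5.35 FPKM for Ctrl and 785 ± 34.8 FPKM for ZA (SD, n = 3). Differences were tested with limma on log2(FPKM + 1), and a call was an adjusted p-value under 0.05, which 0.367% of genes reached. The log2 fold change of C1qa was 0.10 ± 0.03 (SE), with an adjusted p of 0.278 from limma. For C1qb and C1qc it was 0.03 ± 0.02 and 0.05 ± 0.03, with adjusted p-values of 0.623 and 0.51. None of the chains was called, and the 95% interval reached at most 0.17 for C1qa, 0.09 for C1qb and 0.10 for C1qc.

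Together the C1q chains gave 4717, 4817 and 4822 FPKM in Ctrl and 4820, 4990 and 5025 in ZA. They took 0.522% to 0.534% of all fragments in the Ctrl libraries and 0.534% to 0.556% in the ZA libraries. The groups overlapped in the share of each chain. C1qa made up 15.6%, 15.1% and 15.3% of the summed C1q FPKM in Ctrl and 15.6%, 15.7% and 16.3% in ZA. The difference of the means was 0.52 percentage points, with p = 0.20 in a two-sided exact permutation test, which cannot give less than 0.10 with 3 libraries a group. C1qb made up 49.5% ± 0.596 of the Ctrl sum and 49.0% ± 0.617 of the ZA sum (SD, n = 3; exact permutation p = 0.40). C1qc made up 35.1% ± 0.362 and 35.1% ± 0.804 (SD, n = 3; exact permutation p = 1). These shares compare transcripts, and the chains of the C1q protein were not measured.

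**Figure D1:**
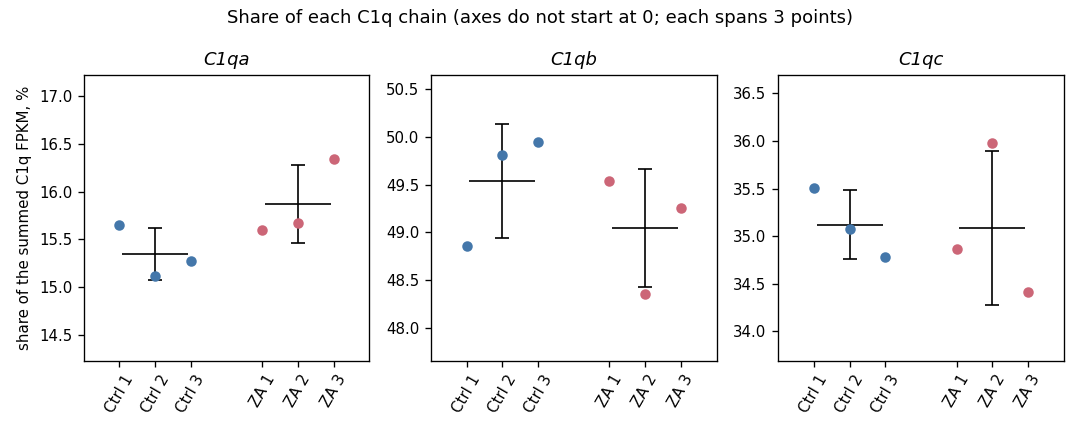
Share of each C1q chain in the summed FPKM of C1qa, C1qb and C1qc, in percent, for each library (blue Ctrl, red ZA; horizontal bar and whiskers, group mean and SD, n = 3). Each axis spans 3 percentage points and does not start at 0. The groups overlap for every chain, with C1qa between 15.1% and 16.3%.

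C3 was the member with the clearest difference. It stood at 22.7, 21.7 and 21.1 FPKM in Ctrl 1, 2 and 3 and at 26.9, 30.2 and 33.2 FPKM in ZA 1, 2 and 3. Every ZA library lay above every Ctrl library, and the spread was wider among the ZA libraries. The means were 21.8 ± 0.836 FPKM for Ctrl and 30.1 ± 3.16 FPKM for ZA (SD, n = 3), a ratio of 1.38. These values rest on 4581 to 7289 fragments a library, for which counting error is 1.17% to 1.48%. The log2 fold change was 0.44 ± 0.07 (SE; 95% interval 0.29 to 0.60), with an adjusted p of 0.0490 from limma, so C3 rose under the call used here and was the only member called.

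That call sits at the threshold. The log2 fold change of C3 stayed between 0.37 and 0.52 under all 14 alternatives, but only 5 of them called it. Centring each library on its median gave an adjusted p of 0.0503, and leaving out Ctrl 1, 2 or 3 or ZA 2 or 3 gave 0.122 to 0.200. Without ZA 1 the log2 fold change was 0.52, with an adjusted p of 0.0163 from limma.

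**Figure D2:**
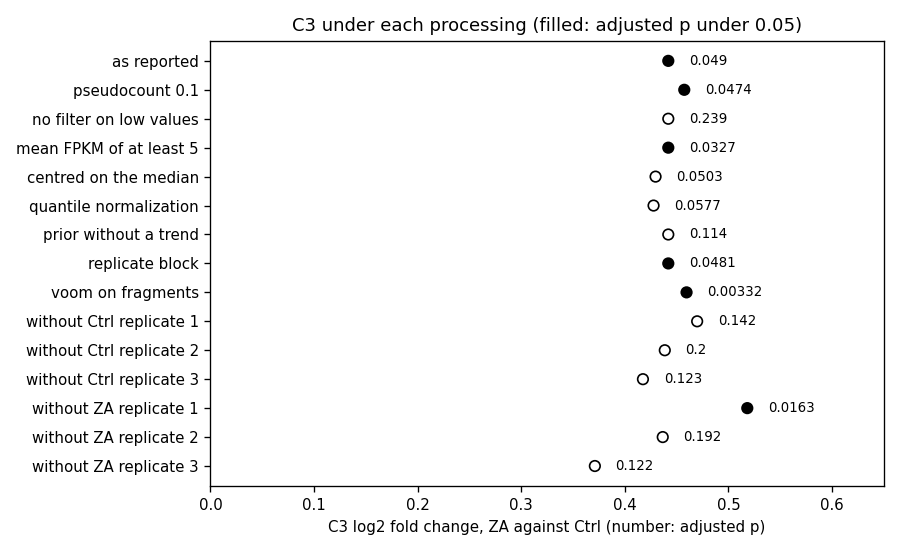
Log2 fold change of C3, ZA against Ctrl, as reported and under each alternative processing, with the adjusted p printed beside each point (filled, under 0.05; open, not). All points lie between 0.37 and 0.52, while the adjusted p ranges from 0.00332 to 0.239.

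Properdin and factor B, the alternative pathway genes, differed greatly in level. Cfp, at 184, 194 and 195 FPKM in Ctrl and 206, 195 and 197 in ZA, ranked 281 among all genes. Its groups just failed to overlap, since the lowest ZA library was at 195.5 FPKM and the highest Ctrl library at 194.6. The log2 fold change of Cfp was 0.06 ± 0.03 (SE), with an adjusted p of 0.456 from limma. The transcript of Cfp was more abundant than that of C3 in every library, by a factor of 8.12, 8.95 and 9.24 in Ctrl and of 7.68, 6.47 and 5.94 in ZA.

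Cfb was at the edge of what was tested. It stood at 0.728, 0.903 and 1.003 FPKM in Ctrl and at 0.727, 1.43 and 1.60 in ZA, on 83 to 187 fragments a library, for which counting error is 7.31% to 10.98%. ZA 1 was level with Ctrl 1, while ZA 2 and ZA 3 were above all Ctrl libraries, so the groups overlapped. The means were 0.878 ± 0.139 and 1.25 ± 0.464 FPKM (SD, n = 3), a ratio of 1.43. The log2 fold change was 0.24 ± 0.14 (SE), understated by the added 1, with an adjusted p of 0.531 from limma. It was 0.41 with 0.1 added in place of 1, 0.42 without ZA 1 (adjusted p of 0.0814 from limma) and 0.13 without ZA 3.

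The anaphylatoxin receptors were both abundant, and C3ar1 was the higher of the pair in each library. C3ar1 stood at 310, 300 and 299 FPKM in Ctrl and at 300, 307 and 321 in ZA, and its groups overlapped. Its log2 fold change was 0.03 ± 0.03 (SE), with an adjusted p of 0.722 from limma. C5ar1 stood at 151, 146 and 145 FPKM in Ctrl and at 138, 139 and 141 in ZA, with every ZA library below every Ctrl library. Its log2 fold change was -0.08 ± 0.02 (SE), a mean change of -5.22%, with an adjusted p of 0.243 from limma. C3ar1 exceeded C5ar1 by a factor of 2.06, 2.05 and 2.06 in Ctrl and of 2.17, 2.21 and 2.28 in ZA, a ratio formed after the values were seen and given without a test.

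**Figure D3:**
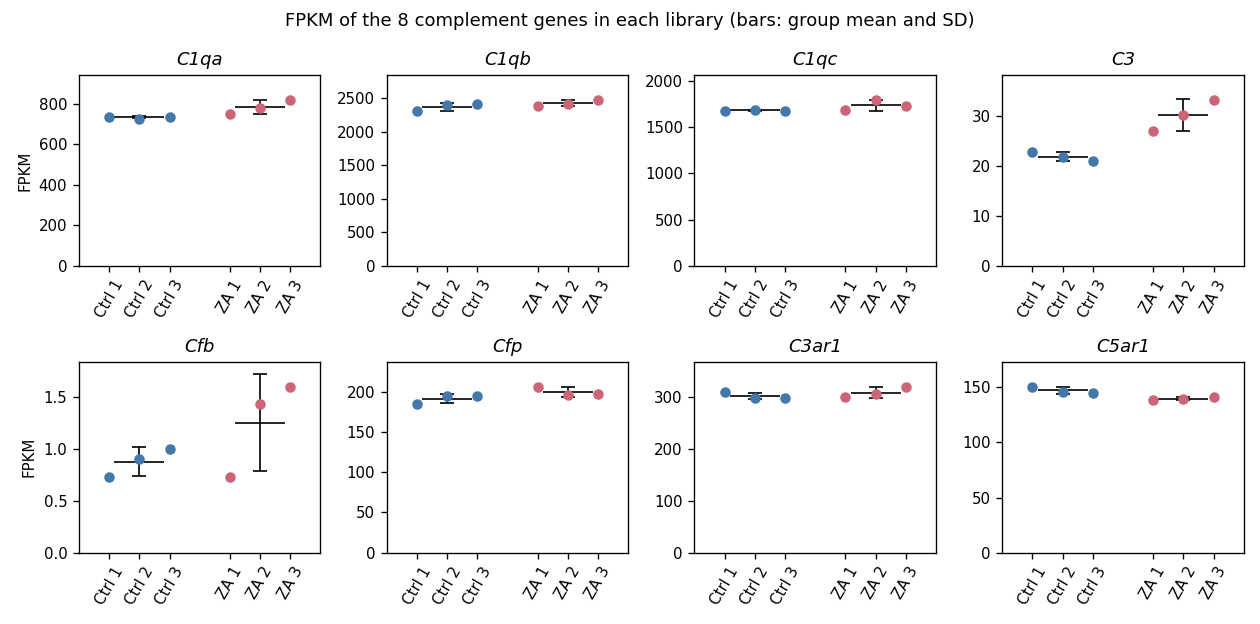
FPKM of the 8 complement genes in each library, with axes from 0 (blue Ctrl, red ZA; horizontal bar and whiskers, group mean and SD, n = 3). C3 rises from 21.1 to 22.7 FPKM in Ctrl to 26.9 to 33.2 in ZA, a ratio of the means of 1.38. That ratio is 1.43 for Cfb, whose groups overlap and which rests on 83 to 187 fragments a library. It is 1.07 for C1qa, 1.02 for C1qb, 1.03 for C1qc, 1.04 for Cfp, 1.02 for C3ar1 and 0.948 for C5ar1.

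From the most to the least abundant per length, the order was C1qb, C1qc, C1qa, C3ar1, Cfp, C5ar1, C3 and Cfb, and it was the same in all 6 libraries, with no neighbours overlapping. Of the 8 members, 7 had a positive log2 fold change, as had 5579 of all 9800 genes, and the median was 0.05, beside 0.01 over all genes tested. At an unadjusted p under 0.05, 2 members were higher (C1qa and C3) and 1 was lower (C5ar1), where 7.5% of all genes were higher and 4.85% lower in ZA. Without ZA 1, 5 members passed that level, and without Ctrl 2, 2 did. Over all genes, 735 were higher against 475 lower. Centring each library on its median turned that balance to 508 higher and 664 lower, and the calls from 20 higher and 16 lower to 11 higher and 18 lower, and left the sign of each member as it was.

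Other genes of the system were read from a list of 51, of which 50 were in the readable table. 11 of these had no fragment in any library, among them Hc, C6 and C7 of the terminal pathway and Mbl1 and Mbl2 of the lectin pathway, which allows up to 3 fragments a library. Another 22 had some fragments but a mean FPKM under 1, the highest of them C1s1 at 0.849. Cfd, which encodes factor D, was such a gene, with 1 fragment in Ctrl 3 and none elsewhere. C8g was the terminal pathway gene with the highest level, at 0.513 FPKM on average. The related pairs C1ra and C1rb, C1s1 and C1s2, Cd55 and Cd55b, and Cd59a and Cd59b may share reads, so their separate values are uncertain. The same holds for C4b, whose related gene C4a was not in the readable table. How far reads are shared was not tested.

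The 17 genes of the list that were tested had a median log2 fold change of -0.04, beside 0.01 over all genes tested. Of the 17, 5 were positive and 12 negative, where 4221 of all 9800 genes were negative, and limma called 0 of them. At an unadjusted p under 0.05, 0 were higher and 2 were lower (8 passed without ZA 1 and 1 without ZA 3). Over all genes tested, 7.5% were higher and 4.85% lower at that level. With voom, a weighted fit on the recovered fragments, 1 gene of the list was called. The 2 lower genes were Ptx3 and Calr. Ptx3, which encodes the soluble pattern recognition protein pentraxin 3, stood at 1.97, 1.39 and 1.35 FPKM in Ctrl and at 0.959, 1.28 and 1.10 in ZA, with a log2 fold change of -0.28 ± 0.10 (SE) and an adjusted p of 0.321 from limma. Its log2 fold change was -0.17 without Ctrl 1, -0.45 with 0.1 added in place of 1 and -0.48 with voom. Calr, which encodes calreticulin, a chaperone that also binds C1q, stood at 510, 507 and 514 FPKM in Ctrl and at 453, 467 and 486 in ZA. Its log2 fold change was -0.12 ± 0.03 (SE), with an adjusted p of 0.113 from limma and 0.0334 from voom. For both genes every ZA library lay below every Ctrl library. Of the 17, 3 lay wholly below, beside 6.76% of all genes tested, and 1 lay wholly above, beside 11.4%.

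The most abundant genes of the other groups had small differences, and none was called. Cr1l, a membrane regulator, stood at 33.4 ± 0.588 FPKM for Ctrl and 34.5 ± 1.23 FPKM for ZA. Colec12, a membrane-bound collectin, stood at 19.4 ± 1.82 and 18.7 ± 1.12 FPKM (SD, n = 3 for each). Their log2 fold changes were 0.05 and -0.05.

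**Figure D4:**
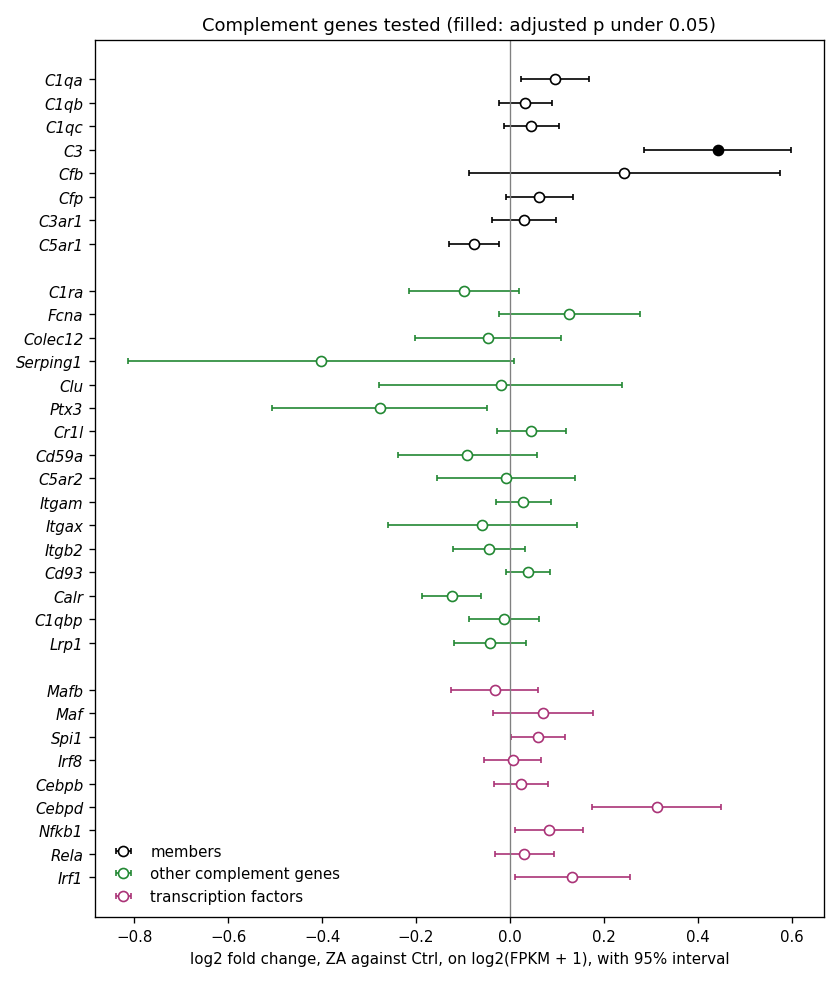
Log2 fold change on log2(FPKM + 1), ZA against Ctrl, with the 95% interval, for the 8 members (black), other complement genes tested (green) and transcription factors (purple). Filled points passed an adjusted p of 0.05, which only C3 did, at 0.44.

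Of 10 transcription factors known to act at complement or macrophage genes, 9 had a positive log2 fold change, as had 5579 of the 9800 genes tested, and limma called 0. At an unadjusted p under 0.05, 4 were higher (Spi1, Cebpd, Nfkb1 and Irf1) and 0 were lower, where 7.5% of all genes tested were higher and 4.85% lower. The count of factors at that level was 1 without Ctrl 1, 1 without ZA 3, 2 without ZA 2 and 2 after centring each library on its median. Cebpd, which encodes a C/EBP factor, stood at 10.1, 9.77 and 10.2 FPKM in Ctrl and at 12.1, 11.9 and 14.1 in ZA, without overlap, with a log2 fold change of 0.31 ± 0.06 (SE) and an adjusted p of 0.0895 from limma. With voom it was called, at an adjusted p of 0.0290. Spi1, which encodes PU.1, was the most abundant of them, at 231 ± 5.25 FPKM for Ctrl and 241 ± 4.85 FPKM for ZA (SD, n = 3; adjusted p of 0.394 from limma). Nfkb1 and Irf1 had log2 fold changes of 0.08 and 0.13, with adjusted p-values of 0.341 and 0.365 from limma.

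For C3, Cfb, Cfp and the mean of the C1q chains, the most similar genes over the 6 libraries were taken by Pearson correlation of log2(FPKM + 1), as a description, among about 4590 genes whose mean FPKM reached 10. C3 was most like Tgfbi, Ncf1 and Adgre1, each at r = 0.99. Tgfbi stood at 60.9, 60.3 and 59.5 FPKM in Ctrl and at 64.2, 68.9 and 71.2 in ZA. Cfb was most like Psmb8, an immunoproteasome subunit, Clec12a and Fcgr1, at r = 0.99, and Cfp was most like Sh2b3, Tbc1d17 and Maged1, at r = 0.995, 0.980 and 0.978. The mean of the C1q chains was most like Pnp, Ppia and Eif2b5, at r = 0.99 for each. With 6 libraries high values are not rare: 161 genes, 3.51%, had r above 0.9 with C3, and 193, 4.20%, with the mean of the C1q chains. For Cfb it was 144 genes, 3.14%, and for Cfp 40 genes, 0.871%. How many genes reached 0.99 was not counted. The points share their libraries and the difference between groups.

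Markers of the cells in the cultures were read beside these results. Macrophage markers were abundant, with Lyz2 the highest and the sum of 10 genes between 24527 and 28443 FPKM in Ctrl and between 25449 and 28898 in ZA. Adgre1 and Csf1r, which mark macrophages, were higher in every ZA library than in any Ctrl library, with adjusted p-values of 0.0785 and 0.0701 from limma. T and NK cell markers summed to at most 0.402 FPKM and dendritic cell markers to at most 0.502 FPKM, and the neutrophil gene Ly6g was at 0. Neutrophil markers summed to 34.6 to 49.7 FPKM in Ctrl and 30.8 to 35.9 in ZA. In log2 fold change 6 of the 6 tested were negative, as were 4221 of all 9800 genes. At an unadjusted p under 0.05, 4 of the 6 were lower (Elane, Mpo, Ngp and Prtn3), where 4.85% of all genes tested were lower. For these 4 every ZA library lay below every Ctrl library, as for 6.76% of all genes tested. Prtn3 had the lowest adjusted p of the list, 0.0742 from limma, and none was called. Of the macrophage markers 7 were positive and 3 negative. At an unadjusted p under 0.05, 3 of the 10 were higher and 0 lower, where 7.5% of all genes tested were higher, and none was called. Stromal and endothelial markers summed to 20.7 to 37.0 FPKM in Ctrl and 18.4 to 26.4 in ZA, with Ctrl 1 the highest and 5 of the 5 tested negative. Osteoclast markers summed to 40.3 to 46.9 FPKM in Ctrl and 38.6 to 42.4 in ZA, with 2 of the 2 tested negative. B cell, erythroid and mast cell and basophil markers each summed to at most 3.01 FPKM, and the 1 tested of each was negative. The part of these lists, Adgre1 and Csf1r included, in the C3 result was not tested. In bulk RNA, fewer cells of a type and less RNA per cell cannot be told apart.

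Serping1, which encodes the C1 inhibitor and was looked at after its values were seen, stood at 11.1, 10.6 and 6.28 FPKM in Ctrl and at 7.62, 6.26 and 6.08 in ZA. Its Ctrl libraries thus spread more than the difference between groups, and the adjusted p was 0.413 from limma. Ctrl 1 was the highest library for Serping1 as it was for the stromal markers, and their part in the result was not tested.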

How the data were processed

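The authors deposited FPKM values, fragments scaled for length and depth, for 3 Ctrl and 3 ZA libraries in a table whose rows mostly run together. Libraries were read as 150-base pairs, and the submitters' notes name the mm9 build. The aligner, counter and annotation are not given in the sources used here, nor is strand, and the labels name both a VAHTS and a SMARTER kit. Rows were cut by the rule that FPKM is a whole number of fragments over gene length and library total, which gave 35378 of 35434 rows and left out 56. Of 5000 simulated rows 0 were cut wrongly. The restored values cover 99.71% of the fragments, with totals of 41230600 to 42155808 a library, and the recovered lengths and fragments are inferred. The intervals of log2 fold changes are limma's and rest on the spread between libraries, while the percentages of counting error and the limit of 3 fragments cover counting only.

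Groups came from the labels. limma 3.58.1 in R 4.3.3 (lmFit, eBayes with a trend) compared log2(FPKM + 1), two-sided, for the 9800 genes whose mean FPKM reached 1, with Benjamini-Hochberg adjustment, without the replicate number, and the fit was tested on simulated data. The members, lists and tests were chosen with earlier results of these data known. Named were all members, other complement genes and factors with an unadjusted p under 0.05, the most abundant of each role, and the 3 genes most correlated with C3, Cfb, Cfp and C1q. Some items under this rule are counted but not reported here. Alternatives were another pseudocount, filters, scaling, prior, block, voom and leaving out each library. Libraries of a group were not duplicates (chi-square per gene of 3.52 to 9.73). Tables were made with Python 3.11.15, NumPy 2.4.6, pandas 2.3.3 and Matplotlib 3.10.9.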

Additional observations from a re-analysis of the deposited data

How the results depend on the processing

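limma called 36 genes in all, and 1 without a filter on low values, 20 after quantile normalization, 1 with a prior without a trend, 78 with the replicate block, 132 with voom and 0 to 25 when a library was left out. Without ZA 2 the count was 0, with 557 genes higher and 416 lower at an unadjusted p under 0.05. Of the other complement genes 2 had an unadjusted p under 0.05, against 1 among genes whose mean FPKM reached 5, 4 with the replicate block and 1 to 8 when a library was left out. The replicate block called Cebpd, with an adjusted p of 0.0440, left C3 at 0.0481 and called no other gene among the members, the other complement genes and the transcription factors. The deviations of same-numbered libraries correlated at 0.284, 0.0393 and 0.280, and every library correlated best with the other group's library of its own number, but number 2 hardly did, and the labels give no shared origin, so the numbers were not taken as pairs. C3 lost its call without a filter (adjusted p of 0.239), after centring (0.0503) and quantile normalization (0.0577), with a prior without a trend (0.114), and without Ctrl 1, 2 or 3 or ZA 2 or 3. The cause was not tested. C1qb had a difference of 0 after quantile normalization. That method sets values by rank within a library, so an equal rank gives 0 whatever the level. C1qc had a log2 fold change of 0.12 there, with an adjusted p of 0.0954 from limma. The members other than C1qb kept their sign under each alternative. The members' median stayed near 0.05. The C1qa share differed by 0.29 to 0.68 points over the libraries left out. Cfb rests on the fewest fragments.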
